A study of Mus musculus with 9 samples.

Results

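Samd9l, Slc10a7, Fyb, Dyrk1b, Orc3 and Lrfn5 are 6 of the 18450 genes in a bulk RNA-sequencing table of mouse brain, and they hold 29 of its 65535 transcript rows. They were chosen by measured values, the level in each library: higher in every library from stressed mice than in every control library, and for most of them also in mice kept in an enriched environment. The values against control are therefore a description and carry no test. All 9 animals were of the APP/PS1 genotype, in which transgenes produce the amyloid deposits of Alzheimer's disease, so the controls carried the transgenes too and no animal without them was compared. The groups were 3 mice exposed to stress, 3 kept in an enriched environment and 3 reared in a standard environment (control). The treatment field of the labels gives standard rearing for every animal, so the group field was used. The sources used here do not give age, the kind of stress or the promoter of the transgenes. Animals were perfused, and the brain stem was pooled with the anterior brain for RNA, so regions are mixed in each library.

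The 6 genes belong to separate pathways. Samd9l is an interferon-inducible gene, and its human counterpart restricts poxviruses and shuts down protein synthesis in infected cells. Slc10a7 is an orphan member of the bile acid carrier family and is known as a brake on store-operated calcium entry. Fyb is a cytosolic adaptor of T cells and myeloid cells that links antigen receptors to integrins. Dyrk1b is a kinase that helps to keep cells out of the cell cycle, Orc3 is a subunit of the origin recognition complex that marks where DNA replication starts, and Lrfn5 is a neuronal adhesion protein of synapses. In bulk tissue a change in the number of cells of a type and a change in RNA per cell cannot be told apart.

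Libraries held between 15851833 and 17213008 estimated counts, and 14694 genes were tested, the 6 among them. Levels are given as CPM, the gene's counts scaled to a common library size. The libraries differed in tissue makeup. Summed choroid plexus markers reached 204 CPM in enriched replicate 1, 195 CPM in enriched replicate 3 and 2960 CPM in enriched replicate 2, against 3845 to 4866 CPM in control and 666 to 2054 CPM in stress. Omp, which marks olfactory sensory neurons, reached 67.3 CPM in enriched replicate 1 and 50.3 CPM in enriched replicate 3, and no more than 4.06 CPM in any other library. All 8 endothelial markers were higher on average in both groups than in control, with sums of 76.7 to 110 CPM in control, 124 to 297 CPM in stress and 93.3 to 182 CPM in enriched. The part of tissue makeup in the results below was not tested.

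Every stress library lay above every control library for 762 of the 14694 genes (5.19%), a set that holds all 6 genes by choice. Every enriched library lay above every control library for 1833 genes (12.5%), and this held for 5 of the 6, Dyrk1b being the exception. Both held for 295 genes (2.01%), and the mirror pattern, with both groups below control, for 377 genes (2.57%) and none of the 6. At the edge of the choice, Lrfn5 was just inside in enriched, with its lowest enriched library at 41.0 CPM and its highest control library at 38.5 CPM. Dyrk1b was just outside, with its lowest enriched library at 22.1 CPM and its highest control library at 23.2 CPM. Over the whole table the quasi-likelihood test of edgeR, adjusted by Benjamini-Hochberg, called 0 genes (0.0%) in stress against control and 0 (0.0%) in enriched against control. The counts at an unadjusted p under 0.05 were 1172 (7.98%) and 2994 (20.4%), DESeq2 called 7 and 40 genes, and limma-voom called 0 and 0.

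Samd9l had the largest fold difference of the 6. Its single deposited transcript, NM_010156.3, is 1 of 2 annotated coding transcripts, so the gene value and the transcript value are the same. The gene lies on chromosome 6 from 3372257 to 3399571 on GRCm38.p6, on the minus strand, and GENCODE M21 gives this transcript 2 exons. Samd9l had control levels of 1.99, 2.54 and 1.997 CPM. Under stress it was at 6.01, 7.32 and 5.62 CPM, and in the enriched libraries at 6.95, 5.89 and 6.21 CPM. Each of the 6 stress and enriched libraries lay above all 3 controls, and stress and enriched overlapped. These levels rest on 33 to 42 estimated counts per library in control and 92 to 119 in the other groups. The stress mean of 6.32 ± 0.892 CPM was 2.91 times the control mean of 2.17 ± 0.313 CPM (SD, n = 3), with a fitted log2 fold change of 1.54 ± 0.19 (SE). The enriched mean of 6.35 ± 0.545 CPM was 2.92 times that of control, with a log2 fold change of 1.54 ± 0.19.

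The promoter of Samd9l is shown because the gene is the one of the 6 known to respond to interferon. The window of 300 bases spans the RefSeq start, chr6:3399522-3399821, minus strand, 5′ to 3′, with capitals kept for motif matches.

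Samd9l: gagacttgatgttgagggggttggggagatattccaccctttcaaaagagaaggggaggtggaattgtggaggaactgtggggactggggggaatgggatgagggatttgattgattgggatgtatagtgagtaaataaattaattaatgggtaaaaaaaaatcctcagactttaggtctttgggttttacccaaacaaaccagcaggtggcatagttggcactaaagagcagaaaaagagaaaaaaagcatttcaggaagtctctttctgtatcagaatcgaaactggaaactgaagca

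On either strand the window holds no pair of GAAA repeats with exactly 2 bases between them, the core of the interferon-stimulated response element, and no match to TTCNNNGAA, CACGTG or TGACGTCA. This says only that these letters are not in this window. The window does hold gaaactggaaa near its end, a pair of GAAA repeats with a wider gap, which the pattern leaves out. The repeat with exactly 2 bases between occurs in 3.44% of 32851 mouse promoters of the same length. None of the other 6 promoter windows of the 6 genes holds it either. The Samd9l window is 41.7% G and C, against a median of 52.7% over all windows.

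Slc10a7, on chromosome 8 from 78509323 to 78734012 (plus strand), followed the same order of groups. Its control libraries were at 1.87, 2.36 and 3.09 CPM. Its stress libraries were at 6.19, 7.20 and 4.34 CPM, and its enriched libraries at 6.41, 5.95 and 5.90 CPM. Stress replicate 3 was the lowest of the 6 stress and enriched libraries and still lay above the highest control. The stress mean was 5.91 ± 1.45 CPM, the control mean 2.44 ± 0.612 CPM and the enriched mean 6.08 ± 0.284 CPM (SD, n = 3). The log2 fold change was 1.28 ± 0.25 in stress and 1.32 ± 0.25 in enriched (SE).

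Fyb, on chromosome 15 from 6522796 to 6665608 (plus strand), was at 4.52, 3.50 and 3.45 CPM in control. It was at 8.26, 7.20 and 5.68 CPM in stress and at 7.85, 6.90 and 7.59 CPM in enriched. The stress and enriched groups overlapped each other and did not overlap control. The log2 fold change was 0.88 ± 0.19 in stress and 0.96 ± 0.19 in enriched (SE). Markers of the cells that are known for Fyb were looked at beside it. T cell markers were nearly absent: 9 of 11 did not pass the filter, with 0 to 8 counts in any library, and the 11 together gave 35 to 55 counts in stress, 51 to 57 in control and 46 to 60 in enriched. The 12 microglial markers summed to 579 to 663 CPM in stress, 514 to 636 CPM in control and 583 to 703 CPM in enriched, with a median log2 fold change of 0.02 in stress and 0.04 in enriched. Of these 12, 7 were above 0 in stress and 10 in enriched. Every enriched library lay above every control library for 3 of them and below for 0, against 12.5% and 13.6% of all genes. Of the neutrophil markers, also of the myeloid lineage, 9 were tested and 9 were above 0 in each comparison with control, with a median log2 fold change of 1.32 in stress and 0.43 in enriched. They summed to 50.2 to 209 CPM in stress, 37.9 to 71.3 CPM in control and 25.7 to 113 CPM in enriched, so that the groups overlapped. None passed the adjustment. At an unadjusted p under 0.05, 4 were higher in stress and 0 in enriched, against 7.98% and 20.4% of all genes in either direction. Without overlap with control, 2 of the 9 were higher and 0 lower in stress, against 5.19% and 4.65% of all genes. In enriched 0 were higher and 0 lower, against 12.5% and 13.6%. The part of the neutrophil markers in the values of Fyb was not tested.

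Dyrk1b, on chromosome 7 from 28179447 to 28197910 (plus strand), differed from the first 3 genes in enriched. Its control libraries were at 17.9, 23.2 and 18.2 CPM, its stress libraries at 33.6, 30.7 and 29.6 CPM and its enriched libraries at 26.3, 27.1 and 22.1 CPM. Stress lay above both other groups without overlap, and enriched overlapped control. The log2 fold change was 0.66 ± 0.14 in stress and 0.35 ± 0.14 in enriched (SE).

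Orc3, on chromosome 4 from 34566781 to 34614963 (minus strand), was at 40.5, 41.8 and 49.4 CPM in control. It was at 58.3, 67.6 and 58.6 CPM in stress and at 58.5, 57.9 and 60.6 CPM in enriched. The log2 fold change was 0.49 ± 0.11 in stress and 0.43 ± 0.11 in enriched (SE). Lrfn5, on chromosome 12 from 61522851 to 61857928 (plus strand), was at 31.1, 30.7 and 38.5 CPM in control. It was at 50.4, 45.2 and 45.2 CPM in stress and at 41.0, 43.0 and 43.9 CPM in enriched. For both genes control replicate 3 was the highest control and lay below all 6 stress and enriched libraries. The log2 fold change of Lrfn5 was 0.49 ± 0.11 in stress and 0.35 ± 0.11 in enriched (SE).

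**Figure D1:**
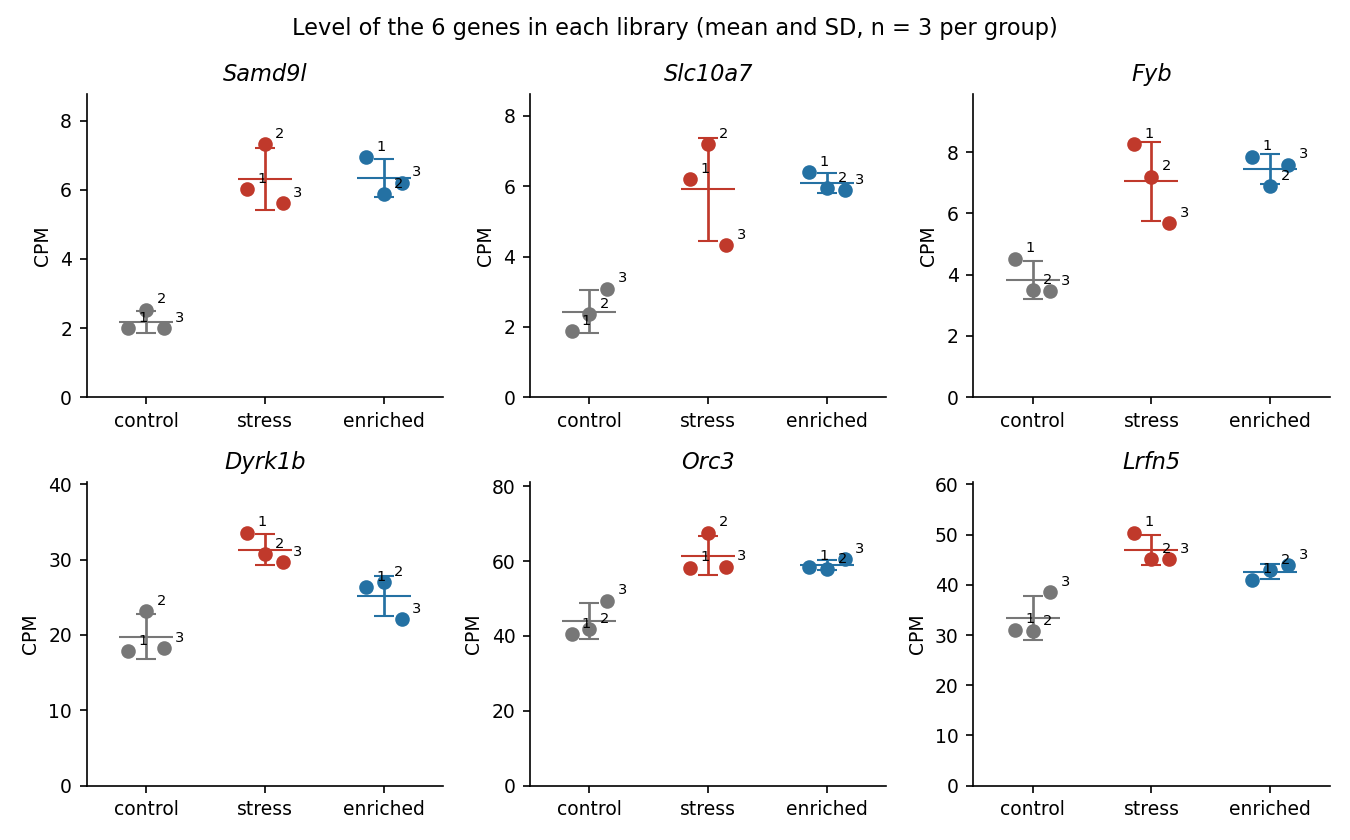
Level of each of the 6 genes in CPM (vertical axis) in the control, stress and enriched libraries (points, numbered by replicate), with the mean (long bar) and SD (whiskers), n = 3 per group. Samd9l sits between 1.99 and 2.54 CPM in control and between 5.62 and 7.32 CPM in stress, while only Dyrk1b has an enriched library (22.1 CPM) below a control (23.2 CPM).

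Each animal's code in the labels begins with C or D, and the sources used here do not explain the letter. It is C for all 3 stress animals and for control replicate 1, and D for all 3 enriched animals and the other 2 controls. Set beside the 1 control with the same letter, the stress mean of Samd9l was higher by 1.67 on the log2 scale, that of Slc10a7 by 1.66, that of Fyb by 0.64, that of Dyrk1b by 0.81 and those of Orc3 and Lrfn5 by 0.60 each. Set beside the 2 controls with the same letter, the enriched means were higher by 1.49, 1.16, 1.10, 0.28, 0.37 and 0.30 in the same order. For all 6 genes in stress and for the 5 without overlap in enriched, the choice of the genes fixed that these differences lie above 0, and the stress values rest on 1 control. In enriched the libraries of Dyrk1b overlapped those of the controls with the same letter.

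Stress and enriched were also set beside each other. The choice asked for high values in every stress library and only for most genes in enriched, so this contrast is not independent of it and the values of the 6 genes are given as a description. Over all 14694 genes edgeR's quasi-likelihood test called 0 genes here (0.0%), with 388 at an unadjusted p under 0.05 (2.64%), and DESeq2 and limma-voom also called 0. Samd9l differed by -0.01 ± 0.18 on the log2 scale (SE), with a 95% interval of the ratio from 0.754 to 1.31. The interval was 0.677 to 1.39 for Slc10a7, 0.709 to 1.26 for Fyb, 0.885 to 1.23 for Orc3 and 0.926 to 1.31 for Lrfn5, which leaves differences of these sizes in either direction. Dyrk1b, the gene chosen on stress alone, differed by 0.32 ± 0.13 on the log2 scale, with an interval of the ratio from 1.01 to 1.53. The choice favours high stress values, so this interval is no test of the difference. From the deposited TPM the difference of Dyrk1b was 0.19 ± 0.13. Every stress library lay above every enriched library for Dyrk1b and Lrfn5, which was the case for 741 of all genes (5.04%). With the deposited TPM this order held for Dyrk1b and not for Lrfn5, whose lowest stress library was at 18.2 TPM and highest enriched library at 20.4 TPM. The opposite order held for 796 genes (5.42%) and none of the 6.

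**Figure D2:**
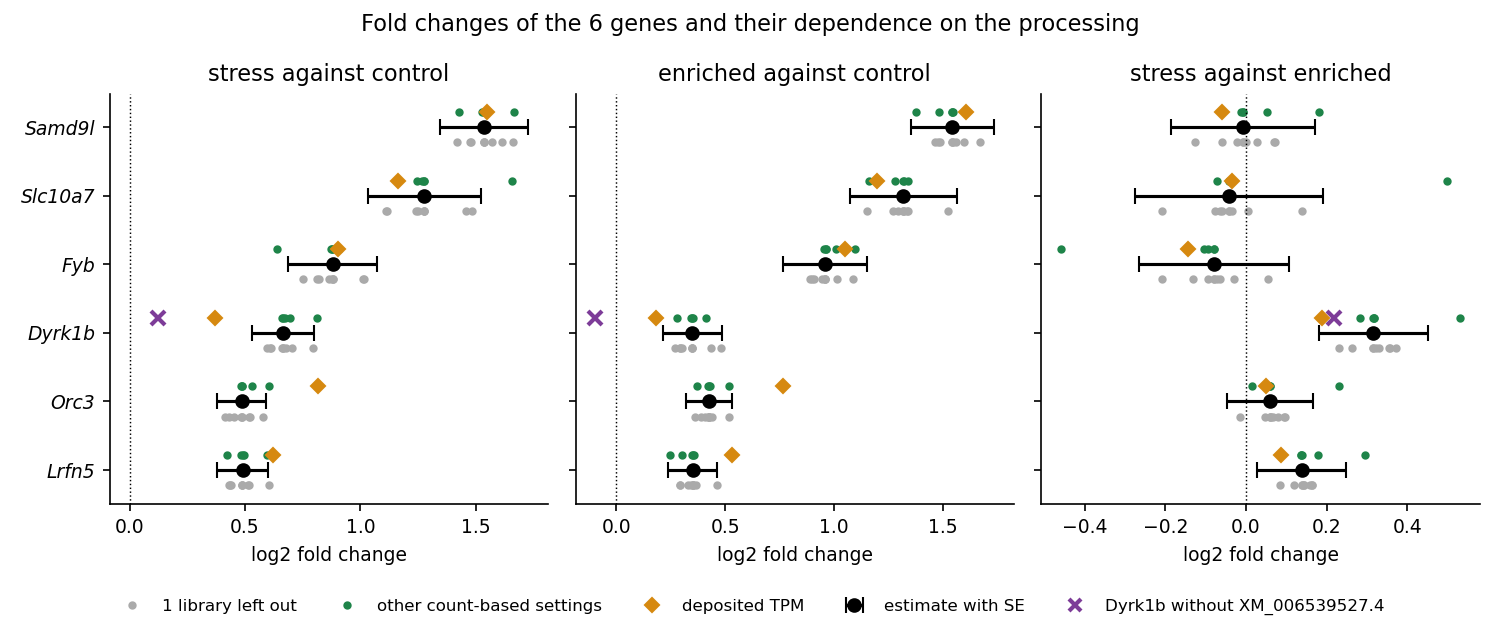
Log2 fold change (horizontal axis) of each gene in the 3 comparisons, with the estimate and its SE in black, fits that leave out 1 library in grey, other count-based settings in green, the deposited TPM as diamonds and Dyrk1b without 1 transcript as a cross. Against control the points of Samd9l, Slc10a7, Fyb, Orc3 and Lrfn5 all lie to the right of 0, while the cross of Dyrk1b lies at 0.12 in stress and -0.095 in enriched. For these 5 genes the choice fixed the side of the grey points in advance.

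The deposited rows give an estimated count for each transcript, which allowed the gene values to be split. Dyrk1b has 4 rows of 6 annotated coding transcripts. Most of its difference lay in 1 row, XM_006539527.4, at 15.03, 12.3 and 7.996 CPM in stress, at 0, 5.52 and 0 CPM in control and at 8.79, 10.5 and 5.84 CPM in enriched. That row made up 86.1% of the difference in gene CPM between stress and control and 121% of that between enriched and control. The other rows together were at 18.5, 18.4 and 21.6 CPM in stress, 17.9, 17.7 and 18.2 CPM in control and 17.5, 16.6 and 16.2 CPM in enriched. Summed without XM_006539527.4, Dyrk1b had a log2 fold change of 0.12 ± 0.11 in stress and -0.095 ± 0.11 in enriched (SE), a split chosen after its values were seen. The row's effective length, taken from the deposited FPKM, was 5.70 times that of the main row NM_001037957.3. Summed over the rows, the deposited TPM, which is scaled by length, gave Dyrk1b a log2 fold change of 0.37 in stress and 0.18 in enriched. The RefSeq gene ends 10616 bases beyond the end of Dyrk1b in GENCODE M21, and the exons of XM_006539527.4 were not analysed here. The main rows NM_001037957.3 and NM_010092.2 each have 11 exons in GENCODE and differ by a coding stretch of 120 bases, at 28185714 to 28185833, that the second lacks. NM_010092.2 was at 7.26 ± 0.287 CPM in stress, 7.79 ± 1.10 CPM in control and 7.18 ± 1.45 CPM in enriched (SD, n = 3).

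The first promoter of Dyrk1b (chr7:28179233-28179532, plus strand, 5′ to 3′), at the start nearest to that of the main rows, is shown with its CACGTG matches in capitals.

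Dyrk1b: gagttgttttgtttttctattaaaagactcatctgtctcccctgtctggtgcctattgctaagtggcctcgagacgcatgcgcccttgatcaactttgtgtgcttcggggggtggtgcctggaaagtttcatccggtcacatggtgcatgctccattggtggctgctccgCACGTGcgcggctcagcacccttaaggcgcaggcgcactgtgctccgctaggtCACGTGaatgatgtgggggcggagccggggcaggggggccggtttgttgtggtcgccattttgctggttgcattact

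CACGTG, an E-box of the kind bound by basic helix-loop-helix factors, was found 80 and 27 bases before the start that sets this window. That start lies downstream of the RefSeq gene start at 28179447, and the nearer match falls inside the gene. At least 1 copy occurs in 7.15% of all promoters of that length. The window around the other Dyrk1b start held no match to any of the 4 motifs. Fbl, which encodes the nucleolar methyltransferase fibrillarin, lies 178 bases before the Dyrk1b gene and was at 36.2 ± 3.16 CPM in stress, 38.5 ± 3.08 CPM in control and 32.6 ± 4.02 CPM in enriched.

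Orc3 has 5 rows of 6 annotated coding transcripts, and its counts were split differently from library to library between a pair of nearly identical ones. NM_015824.4 took 48.2%, 35.2% and 31.6% of the gene's counts in stress, 47.9%, 76.6% and 78.8% in control and 18.2%, 36.6% and 81.3% in enriched. NM_001159563.1 took 33.9%, 42.9% and 50.3% in stress, 39.2%, 11.5% and 14.5% in control and 59.6%, 41.2% and 10.6% in enriched. Libraries of 1 group thus fell on opposite sides, enriched replicates 1 and 3 above all. Of the difference in gene CPM from control, NM_001159563.1 made up 95.4% in stress and 82.4% in enriched. NM_015824.4 made up -37.9% and -20.5%. In CPM, NM_001159563.1 lay above control in every stress library and overlapped control in enriched. In GENCODE M21 the pair share 20 exons and differ by 31 bases at the 5′ end and by 3 coding bases at 34578030 to 34578032. The stretch is shown for both, 5′ to 3′ on the minus strand, with 30 bases on each side and the 3 bases in capitals.

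NM_015824.4: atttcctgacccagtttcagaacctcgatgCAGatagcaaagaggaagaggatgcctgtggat
NM_001159563.1: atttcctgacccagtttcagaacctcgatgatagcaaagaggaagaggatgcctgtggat

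The pair summed was at 47.8, 52.8 and 48.0 CPM in stress, 35.3, 36.8 and 46.1 CPM in control and 45.6, 45.0 and 55.6 CPM in enriched. Stress lay above control, and control replicate 3 overlapped enriched. The other 3 rows summed to 11.97 ± 2.48 CPM in stress, 4.49 ± 1.05 CPM in control and 10.25 ± 4.60 CPM in enriched (SD, n = 3), with enriched replicate 3 at 4.94 CPM among the controls. The main ones of these, XM_017320309.2 and XM_030253653.1, have effective lengths of 0.357 and 0.323 times that of NM_015824.4. The deposited TPM gave Orc3 a log2 fold change of 0.81 in stress and 0.76 in enriched.

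Fyb has 5 rows of 9 annotated coding transcripts, and 3 rows of nearly equal effective length took turns. NM_011815.5 held 74.1%, 83.3% and 51.9% of the counts in control and 85.3%, 74.5% and 0% in enriched. In stress it held 0.0956%, 0% and 61.9%. XM_006519982.1 held 76.6% and 45.5% in stress replicates 1 and 2 and 54.3% in enriched replicate 3, and its estimate was 0 in the other 6 libraries. Where either of these 2 rows was at or near 0 the other was high, while the gene total varied much less. The remaining row, XM_006519983.3, was at 1.92, 3.92 and 2.16 CPM in stress, 0, 0.580 and 1.67 CPM in control and 1.155, 1.76 and 3.47 CPM in enriched. It lay above control in every stress library and overlapped control in enriched. Of the difference in gene CPM between stress and control, XM_006519982.1 made up 99.4%, XM_006519983.3 59.6% and NM_011815.5 -46.9%.

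Slc10a7 has 9 rows of 11, of which NM_029736.2 and XM_006531491.3 carried most counts. XM_006531491.3 was at 2.63, 2.39 and 2.14 CPM in stress, 1.44, 1.76 and 1.28 CPM in control and 1.74, 2.23 and 1.56 CPM in enriched. It lay above control in every stress library and overlapped control in enriched. NM_029736.2 was at 2.43, 3.01 and 1.91 CPM in stress, 0.429, 0 and 1.75 CPM in control and 4.65, 2.53 and 3.51 CPM in enriched, and did not overlap control in either group. NM_029736.2 made up 49.9% of the difference in gene CPM in stress and 78.3% of that in enriched. NM_001282109.1, which the GENCODE table links to the same 12-exon transcript, had counts in the 3 stress libraries and was at 0 in the other 6.

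Lrfn5 has all 5 annotated coding transcripts in the table and was the gene with several rows whose difference lay in its main one throughout. NM_001310586.1 held 80.5% to 93.9% of the counts in every library. It was at 47.3, 36.4 and 39.2 CPM in stress, 27.8, 28.1 and 34.8 CPM in control and 38.5, 38.5 and 37.7 CPM in enriched, with no overlap between control and either group. It made up 79.5% of the difference in gene CPM in stress and 87.2% of that in enriched.

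A row that rises in stress can raise both its share of the gene and the gene total used for the choice. For the chosen genes the shares are therefore not independent of the choice, and their p-values are given as a description. Differences in a transcript's share of its gene were tested over 34817 transcripts with edgeR's diffSpliceDGE. It called 10 transcripts in stress against control (0.0287%), 30 in enriched against control (0.0862%) and 23 in stress against enriched (0.0661%), and none of the 17 rows of the 5 genes was among them. Each of the 17 had adjusted p = 1. The 1 row with an unadjusted p under 0.05 was XM_006519982.1 of Fyb in stress against control (0.0353). limma's diffSplice called none of the 17 either. Two-sided exact permutation tests of the share of the most abundant row gave p between 0.2 and 0.9 in the 15 comparisons, where 3 against 3 libraries cannot go below 0.1. Taken over single transcript rows, every stress library lay above every control library for 4.66% of 55110 rows and 9 rows of the 6 genes, and every enriched library for 7.3% and 4 rows. The 6 genes hold 29 rows, not all of them among the 55110. Their rows add up to the gene values used for the choice, and the row of Samd9l is its gene value. An excess of such rows was therefore set in advance.

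**Figure D3:**
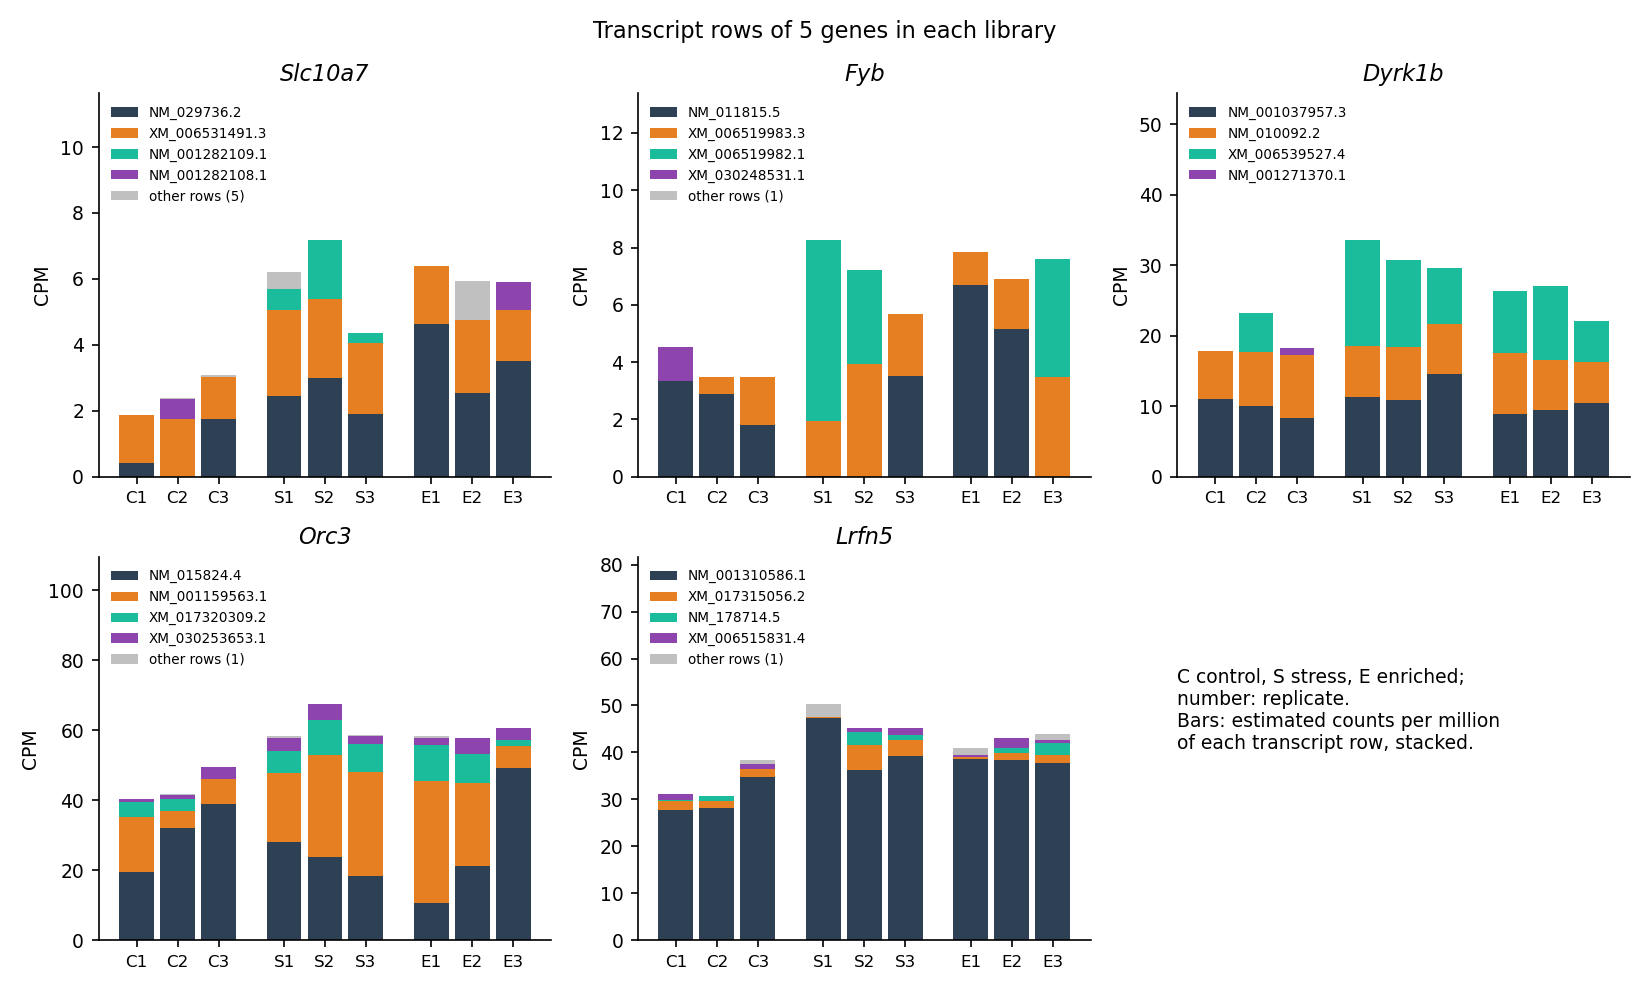
Estimated CPM (vertical axis) of each transcript row of 5 genes, stacked, in the 9 libraries (C control, S stress, E enriched, numbered by replicate). The green part of the Dyrk1b bars, XM_006539527.4, is 0 in control replicates 1 and 3 and between 5.52 and 15.03 CPM elsewhere, while the Lrfn5 bars consist mostly of NM_001310586.1.

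Other genes of the pathways were followed through lists. Of 42 interferon-stimulated genes tested, which leave out Samd9l, 33 were above 0 in stress against control with a median log2 fold change of 0.25, and 32 in enriched with a median of 0.23. Over all 14694 genes, 7682 were above 0 in stress and 7597 in enriched, with a median of 0.02 in both. None of the 42 passed the adjustment. At an unadjusted p under 0.05, 5 were higher and 1 was lower in stress, and 8 were higher and 2 lower in enriched, where the share of all genes at that p was 7.98% in stress and 20.4% in enriched. Without overlap with control, 12 of the 42 were higher and 1 was lower in stress, against 5.19% and 4.65% of all genes. In enriched 11 were higher and 2 lower, against 12.5% and 13.6%. Ifi44 was at 1.06 ± 0.0909 CPM in stress, 0.423 ± 0.263 CPM in control and 0.932 ± 0.236 CPM in enriched. Oas2, which makes the second messenger that activates RNase L, was at 1.39 ± 0.211 CPM in stress, 0.604 ± 0.181 CPM in control and 0.935 ± 0.282 CPM in enriched (SD, n = 3). The tethering factor Bst2 had a log2 fold change of -0.64 ± 0.23 in stress and -0.54 ± 0.23 in enriched, and Ifi27 of -0.33 ± 0.15 and -0.41 ± 0.15 (SE). Adjusted p was 0.546 for these 4 genes in stress and between 0.236 and 0.308 in enriched, by edgeR's quasi-likelihood test. The summed level of the list was 364 to 408 CPM in stress, 332 to 374 CPM in control and 367 to 387 CPM in enriched.

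**Figure D4:**
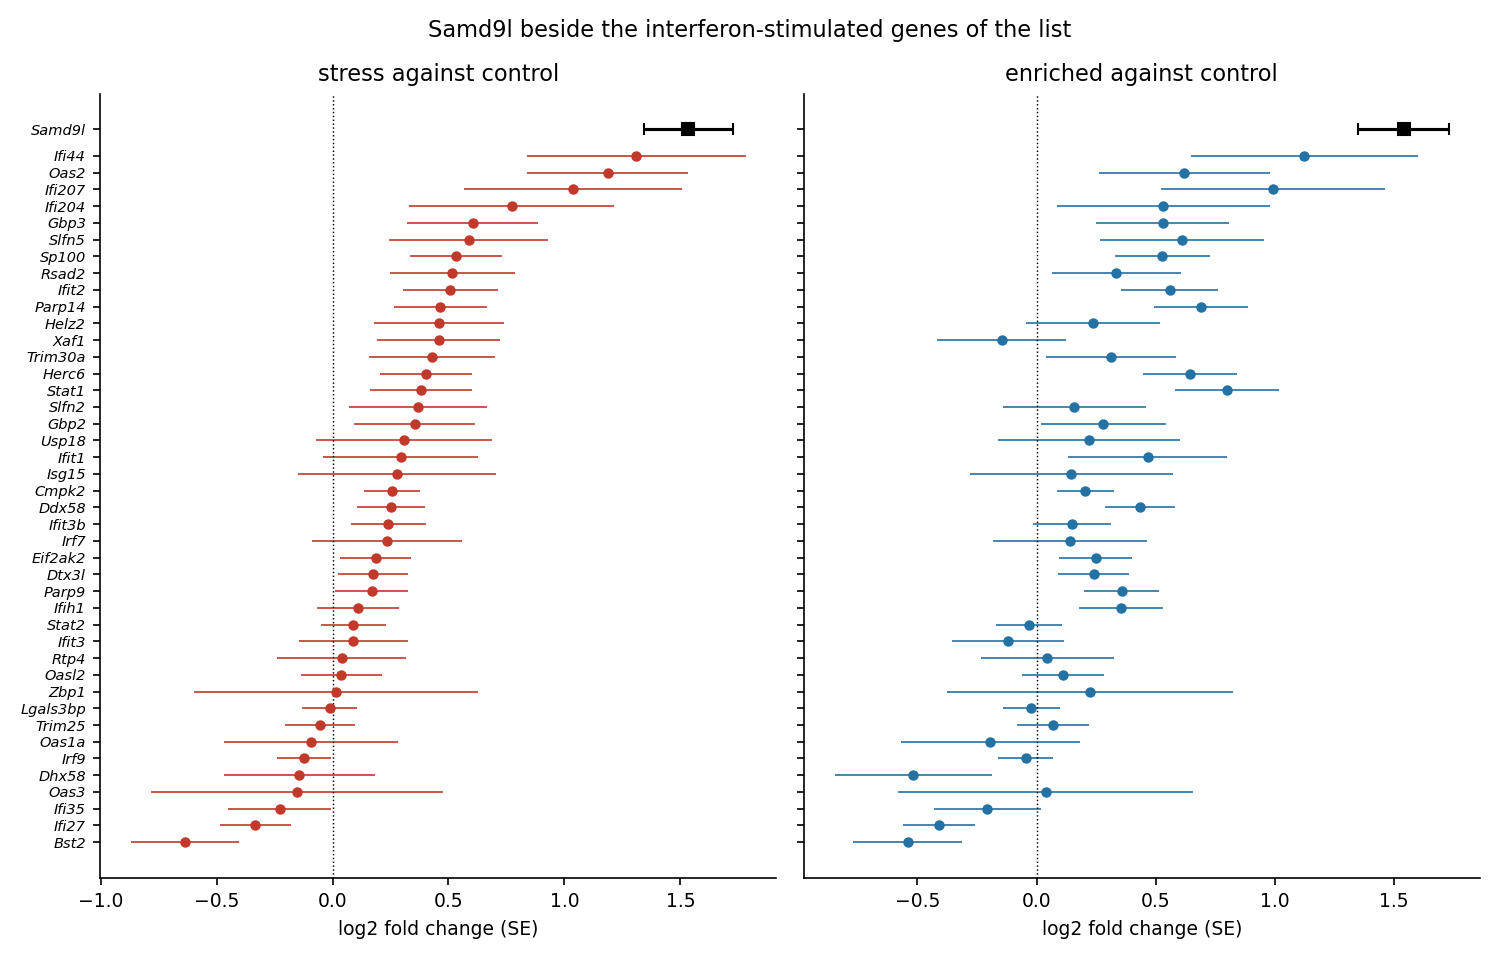
Log2 fold change with SE (horizontal axis) of the 42 tested interferon-stimulated genes (circles), sorted by stress against control, and of Samd9l (square, top row), in stress against control and in enriched against control. Samd9l, at 1.54 in both panels, lies to the right of the list's medians of 0.25 and 0.23, and 9 genes of the list lie below 0 in stress.

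None of the other pathway lists had a gene past the adjustment in any of the 3 comparisons. Of 14 tested partners of Fyb, 8 were above 0 in stress and 6 in enriched, with medians of 0.09 and -0.02. Lcp2 (SLP-76), the adaptor to which Fyb binds, was at 4.01 ± 0.831 CPM in stress, 2.78 ± 0.617 CPM in control and 3.82 ± 0.173 CPM in enriched. Zap70, the kinase of the T cell receptor, had a log2 fold change of 0.32 ± 0.45 in stress, and its other partner Lat one of -0.08 ± 0.38. Dbnl, an actin-binding adaptor, was at -0.30 ± 0.12. Of the 7 genes of store-operated calcium entry, which Slc10a7 restrains, 3 were above 0 in stress and 2 in enriched. The calcium sensor Stim2 had a log2 fold change of 0.14 ± 0.09 in stress, the cation channel Trpc1 0.21 ± 0.17, the channel Orai1 -0.24 ± 0.17 and the brake Saraf -0.23 ± 0.12. Of the other Slc10 carriers 2 were tested. Slc10a3 had a mean of 3.08 ± 0.354 CPM under stress, beside 3.08 ± 0.630 CPM in control, and Slc10a4 ranged from 0.424 to 16.7 CPM over the 9 libraries.

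Of 13 Dyrk and Hipk kinases and Dyrk1b partners, 9 were above 0 in stress and 11 in enriched, with medians of 0.12 and 0.26. Dcaf7, the scaffold that binds Dyrk1 kinases, had a log2 fold change of 0.27 ± 0.15 in stress and the kinase Hipk3 one of 0.26 ± 0.14. The Hedgehog factor Gli1 was at -0.53 ± 0.17 and the cell cycle inhibitor Cdkn1b at -0.18 ± 0.12. Of 14 genes of origin recognition and licensing, 5 were above 0 in stress and 4 in enriched, with medians of -0.09 and -0.18. Orc4 was at 0.38 ± 0.16 and Orc1 at 0.64 ± 0.52 in stress, the licensing factor Cdt1 at -0.39 ± 0.22 and the helicase subunit Mcm2 at -0.35 ± 0.15 (SE). Of 18 genes of the Lrfn family and of synaptic adhesion through LAR-type phosphatases, 10 were above 0 in stress and 12 in enriched, with medians of 0.06 and 0.18. Slitrk3 was at 0.53 ± 0.19 and Slitrk4 at 0.35 ± 0.60 in stress, while the Lrfn5 relative Lrfn3 was at -0.30 ± 0.14 and Lrrc4b at -0.29 ± 0.13.

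The genes next to the 6 were read from the RefSeq annotation. Rbmxl1, which lies 395 bases before Slc10a7, was at 47.1 ± 3.64 CPM in stress, 47.6 ± 1.40 CPM in control and 46.3 ± 1.11 CPM in enriched. Lsm6 on the other side of Slc10a7 had a log2 fold change of -0.05 ± 0.11 in stress and -0.16 ± 0.11 in enriched. The nearest tested gene to Samd9l, Vps50, lies 98822 bases away and was at 0.26 ± 0.13 and 0.21 ± 0.13. Beside Fyb, Dab2 was at 0.34 ± 0.20 and 0.38 ± 0.20, and Rictor at 0.35 ± 0.22 and 0.49 ± 0.22. Eid2, the gene after Dyrk1b, was at -0.26 ± 0.13 and -0.40 ± 0.13. Orc3, from 34566781 to 34614963, overlaps Rars2 and Akirin2 only at its edges. Rars2 starts at 34614957 and Akirin2 ends at 34566965. Without strand, reads from these short overlaps cannot be told apart. Rars2 was at 0.28 ± 0.12 and 0.16 ± 0.12 and Akirin2 at -0.06 ± 0.09 and 0.05 ± 0.09. The nearest tested genes that do not overlap Orc3 were Cnr1, at 0.22 ± 0.29 and 0.33 ± 0.29, and Slc35a1, at 0.41 ± 0.14 and 0.05 ± 0.14. Beside Lrfn5, which lies in a stretch with few tested genes, Fbxo33 was at -0.12 ± 0.08 and -0.13 ± 0.08 and Gm527 at 0.23 ± 0.23 and 0.38 ± 0.23 (SE). None of these neighbours passed the adjustment in any of the 3 comparisons.

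The genes whose pattern over the 9 libraries was most like that of each gene were found by the root-mean-square difference of centred log2 CPM among 13937 genes with a mean of at least 1 CPM. The smaller this value, the closer 2 genes are in the size of their differences between libraries as well as in their order. The values are not scaled, so ranks depend on the spread of each gene. The 9 libraries share their depth and tissue makeup. The 6 genes were chosen by their order in these same libraries, so closeness among them follows in part from the choice. Slc10a7 was nearest to Samd9l, at 0.24, where the own spread of Samd9l was 0.72 on the same measure, and it was followed by Slc43a3 and Gm3636. Cd33, a sialic acid-binding receptor of microglia, was nearest to Slc10a7 at 0.22, ahead of the imprinted zinc-finger gene Plagl1 and Samd9l. Cd33 was at 2.85, 2.40 and 1.89 CPM in stress, 1.03, 1.15 and 1.39 CPM in control and 2.34, 2.91 and 2.38 CPM in enriched. Ceacam1, 1110002E22Rik and Traip were nearest to Fyb, at 0.19 to 0.20. Ccdc14, Gm14393 and Gm14391 were nearest to Dyrk1b, at 0.12 to 0.13. Nipa2, Tifab and Nktr were nearest to Orc3, at 0.075 to 0.087, and Wdr17, Ap3m1 and Tmem131l to Lrfn5, at 0.098. Among themselves the 6 genes fell into pairs only in part. Orc3 ranked 5 among the genes nearest to Lrfn5 and Lrfn5 ranked 15 among those nearest to Orc3, while Fyb ranked 5 for Samd9l and Samd9l ranked 565 for Fyb. Dyrk1b ranked 142 for Samd9l, and Samd9l ranked 12079 for Dyrk1b. The 2 genes lay 0.50 apart, where the own spread was 0.72 for Samd9l and 0.30 for Dyrk1b. These unequal ranks thus go with unequal spreads and do not by themselves show unlike patterns.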

How the data were processed

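Messenger RNA libraries of 9 mouse brains (3 stress, 3 control, 3 enriched) were analysed from the deposited table. Per the submitters' processing notes, HISAT2 2.0.4, Bowtie2 2.2.5, RSEM 1.2.12 and build GRCm38.p6 were used. The authors deposited estimated counts, TPM and FPKM per RefSeq transcript, and the FPKM served only for effective lengths. Random-hexamer priming and PCR without molecular identifiers or strand marks are described per the labels' protocols.

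The estimated counts, 56.5% of them not whole, were rounded after summing over transcripts to genes. edgeR 4.0.16 (filterByExpr with minimum count 10, TMM, quasi-likelihood test, 6 residual degrees of freedom) fitted all 9 libraries, with p-values adjusted over the 14694 genes. Transcript usage was tested with diffSpliceDGE. DESeq2 1.42.0, limma 3.58.1 and the deposited TPM (pseudocount 0.1) were alternatives. Scripts were tested on simulated data.

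The 6 genes and the gene lists were chosen with earlier results of these data known. Beside the 6, genes were named by rule: neighbours, the 3 most alike in pattern, up to 2 highest and 2 lowest in stress for each pathway list, and the 2 most abundant of each marker list. Intervals cover the spread between animals. Replicates were numbered in accession order, and each has its own animal code. Promoter sequences and gene coordinates are from RefSeq (GRCm38.p6), and transcript structures and the Orc3 sequences from GENCODE M21 (GRCm38).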

Additional observations from a re-analysis of the deposited data

How the results depend on the processing

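No paired analysis was possible because the labels give the animals no replicate numbers shared between groups. Against control, the log2 fold changes of Samd9l, Slc10a7, Fyb, Orc3 and Lrfn5 stayed above 0 under every alternative run. With 1 library left out the choice of the genes fixed this sign in advance, and the other settings refit the same libraries. The sign is therefore no support for the differences. With 1 library left out the log2 fold changes ranged in stress from 1.42 to 1.66 for Samd9l, 1.11 to 1.48 for Slc10a7, 0.75 to 1.02 for Fyb, 0.59 to 0.80 for Dyrk1b, 0.41 to 0.58 for Orc3 and 0.43 to 0.60 for Lrfn5. In enriched they ranged from 1.46 to 1.67, 1.15 to 1.52, 0.89 to 1.09, 0.27 to 0.48, 0.36 to 0.52 and 0.29 to 0.46. Values that moved by more than the spread between replicates were, with the deposited TPM, Dyrk1b at 0.37 and Orc3 at 0.81 in stress and Orc3 at 0.76 and Lrfn5 at 0.53 in enriched, with the code letter as a covariate Slc10a7 at 1.66 in stress, and with the trend over transcript length removed Samd9l at 1.38 in enriched. Lrfn5, at 0.245 in enriched with that trend removed, stayed within the spread. The length trend differed between libraries. In log2 units per doubling of length it was -0.245, -0.0860 and 0.0269 in control, 0.0484, 0.0740 and -0.0839 in stress and 0.0364, 0.105 and 0.124 in enriched. Dyrk1b without XM_006539527.4, an alternative added after seeing the data, was at 0.12 in stress and -0.095 in enriched. Its sign reversed in enriched only. In stress against enriched, signs turned for Samd9l with the code letter (0.18) and the length trend removed (0.053) and for Slc10a7 with the code letter (0.50). With 1 library left out, that comparison gave -0.13 to 0.072 for Samd9l, -0.21 to 0.14 for Slc10a7, -0.21 to 0.054 for Fyb, 0.23 to 0.37 for Dyrk1b, -0.014 to 0.10 for Orc3 and 0.08 to 0.16 for Lrfn5.

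Counts of genes called moved from 0 to 7 with DESeq2 and 3 with the code letter in stress against control, to 40 with DESeq2 in enriched against control and to 2 with the code letter in stress against enriched. With 1 library left out they stayed at 0 in stress against control, ranged from 0 to 1586 in enriched against control (1586 without control replicate 3, 33 without enriched replicate 2) and from 0 to 2 in stress against enriched (without enriched replicate 2). Transcripts called in usage fell from 30 to 18 with limma's diffSplice in enriched against control. They ranged from 3 to 22, 18 to 43 and 17 to 35 in the 3 comparisons with 1 library left out, the lowest in stress against control being without enriched replicate 3 and the highest without stress replicate 2. The difference in the share of the main Dyrk1b row between stress and control turned from -10.8 to 3.01 percentage points when shares of TPM were used. With 1 library left out, shares turned sign for Fyb (-32.5 to 10.1) and Lrfn5 (-2.64 to 1.33) in enriched against control and for Dyrk1b (-4.14 to 5.16), Orc3 (-20.6 to 10.9) and Lrfn5 (-6.19 to 0.44) in stress against enriched. The causes were not tested. Samd9l and Slc10a7 have the least depth of the 6 genes, with 33 to 42 and 31 to 51.2 counts per control library.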
